A study of Mus musculus with 6 samples.

Results

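The genes of the cytosolic RNA and DNA sensing pathway were examined in hypoxic neonatal mouse cardiomyocytes (NMCMs) with or without β-sitosterol (β-SITO), a plant sterol. The group consisted of 9 of the 57010 genes in the count table, chosen by name: the RIG-I-like receptors Rigi (also named Ddx58), Ifih1 and Dhx58, their adaptor Mavs, the DNA sensor Cgas, its partner Sting1, the kinases Tbk1 and Ikbke, and the nuclease Trex1. RNA-seq counts were available for 6 libraries, 3 labelled HO + Vehicle (the vehicle group, V1 to V3) and 3 labelled HO + β-SITO (the β-SITO group, T4 to T6), where HO stands for hypoxia. Cells of both groups were primary cultures from newborn mice, separated from fibroblasts by differential adhesion and kept under hypoxia, and the HO + β-SITO group additionally received β-SITO. The dose and time for these libraries and the number of animals behind each culture are not given in the sources used here, so p-values measure the spread between libraries, which may be technical.

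RIG-I (Rigi) and MDA5 (Ifih1) are helicases that recognise viral or misplaced double-stranded RNA in the cytosol and pass the signal to MAVS on the outer mitochondrial membrane, while LGP2 (Dhx58) lacks the signalling domains of the other RIG-I-like receptors and tunes them. cGAS binds cytosolic DNA and makes the cyclic dinucleotide cGAMP, which activates STING, and TREX1 degrades DNA before cGAS can meet it. Both arms converge on the kinases TBK1 and IKKε (Ikbke), which phosphorylate IRF3 and IRF7 to switch on type I interferon genes, and several of the sensors are themselves induced by interferon.

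The interferon-stimulated response element (ISRE) is the DNA motif through which interferon induces such genes, so the promoter stretches that hold it are shown for Rigi and Ifih1, with Mavs beside them because its transcript moved the other way. RefSeq promoter windows (GRCm38.p6, 250 bases before to 50 after the annotated start, 300 bases in all) were matched for 7 of the 9 genes, and Dhx58 and Sting1 were not matched. The ISRE core (GAAA, any 2 bases, GAAA), searched on both strands, was found in 2 of the 7, Rigi and Ifih1, and in 3.99% of the 27025 genes with a window. Capitals mark the match, and each stretch is written 5′ to 3′ on the strand of the gene.
Rigi (Ddx58), minus strand, chr4:40239814-40239885: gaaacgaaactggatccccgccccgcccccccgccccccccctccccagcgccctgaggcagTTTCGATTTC
Ifih1, minus strand, chr2:62646206-62646235: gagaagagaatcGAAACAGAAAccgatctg
Mavs, plus strand, chr2:131234003-131234062: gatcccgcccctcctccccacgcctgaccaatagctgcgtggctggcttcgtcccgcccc
The match lay at bases 3 to 12 after the start of Rigi, where it reads TTTCGATTTC on the strand shown, and at bases 33 to 42 after the start of Ifih1. The windows of the other 5 genes held none of the 3 motifs searched, which also included the gamma-activated site TTCNNNGAA (9.55% of all genes) and an NF-κB element (GGG, any 2 bases, TTTCC; 1.89%). These 5 genes were Mavs, Trex1 and 3 with lower transcripts in the β-SITO group, Ikbke (log2 fold change -2.82), Tbk1 (-1.38) and Cgas (-0.89). A match is only a match of letters and was not tested as a binding site.

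Vehicle libraries held 16694734 to 17082129 counts, and β-SITO libraries 16962152 to 18460522. All 11 cardiomyocyte markers were detected, 2 of them higher and none lower in the β-SITO group, with summed levels of 5996 to 6943 CPM (a gene's counts relative to the library total, after TMM scaling) against 5156 to 8422 CPM. The sum in T4 (5156 CPM) lay below every vehicle library, and those in T5 (8348 CPM) and T6 (8422 CPM) lay above every one. For markers, higher and lower mean an adjusted p under 0.05 in edgeR's quasi-likelihood test and a change of more than 2-fold. By adjusted p alone 4 cardiomyocyte markers were higher and 2 lower (Tnnt2 and Pln). Markers of other cells were detected as well. Fibroblast markers summed to 29830 to 31110 CPM against 44410 to 45500 CPM, more than the cardiomyocyte markers in every library, although the labels name cardiomyocytes. Most of the fibroblast sum came from Col1a1, Col1a2 and Col3a1 (9100, 6800 and 10422 CPM in the vehicle group). Sums over different genes do not give the share of each cell type. None of the 8 fibroblast markers was higher or lower by this rule. By adjusted p alone 5 were higher and 2 lower (Dcn and Postn), and Col3a1 went from 10422 to 18850 CPM. Of 10 macrophage markers 7 were higher and none lower in the β-SITO group, with sums of 1185 to 1302 against 2814 to 3460 CPM, and all 7 endothelial markers were higher, with sums of 202.5 to 232.4 against 812.5 to 845.4 CPM. Of 7 smooth muscle cell and pericyte markers 5 were higher, with sums of 592.6 to 643.0 against 1165 to 1389 CPM. Of 6 neutrophil markers only Csf3r had enough counts to be tested, and it was lower (14.6 against 3.42 CPM). It made up most of the sums of 14.8 to 16.4 CPM against 3.82 to 5.55 CPM. The others were near 0 in both groups, such as S100a8 (0.397 against 0.401 CPM), and Ly6g was at 0 in every library. The part of these cell types in the results below was not tested, and in bulk RNA fewer cells of a type cannot be told apart from less RNA per cell. The β-SITO libraries alone carry a suffix in their names, so a difference in preparation between the groups cannot be told apart from the treatment.

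Most members of the sensing pathway examined here were lower in the β-SITO group, and the RNA-arm adaptor gene Mavs was not. Of the 8 members with enough counts to be tested, 6 were differentially expressed genes (DEGs) that fell, namely Dhx58, Ifih1, Rigi, Ikbke, Sting1 and Tbk1, and none rose. DESeq2 and limma-voom also gave 6 and 0. A DEG is a gene with an adjusted p under 0.05 in edgeR's quasi-likelihood test and a change of more than 2-fold, and of all 14799 tested genes 10.1% were DEGs in the lower direction, 12.8% in the higher and 22.8% in either. With the adjusted p alone (or an unadjusted p under 0.05), 7 members were lower and 1 higher, against 33.8% and 33.0% of all tested genes by adjusted p. The median log2 fold change of the 8 members was -2.65, against -0.01 over all tested genes. Reads of the 9 genes made up 0.127% to 0.133% of vehicle libraries but 0.0214% to 0.0236% of β-SITO libraries. All 8 passed the filter on low counts with reads in every library of both groups, and Trex1 did not pass it.

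**Figure D1:**
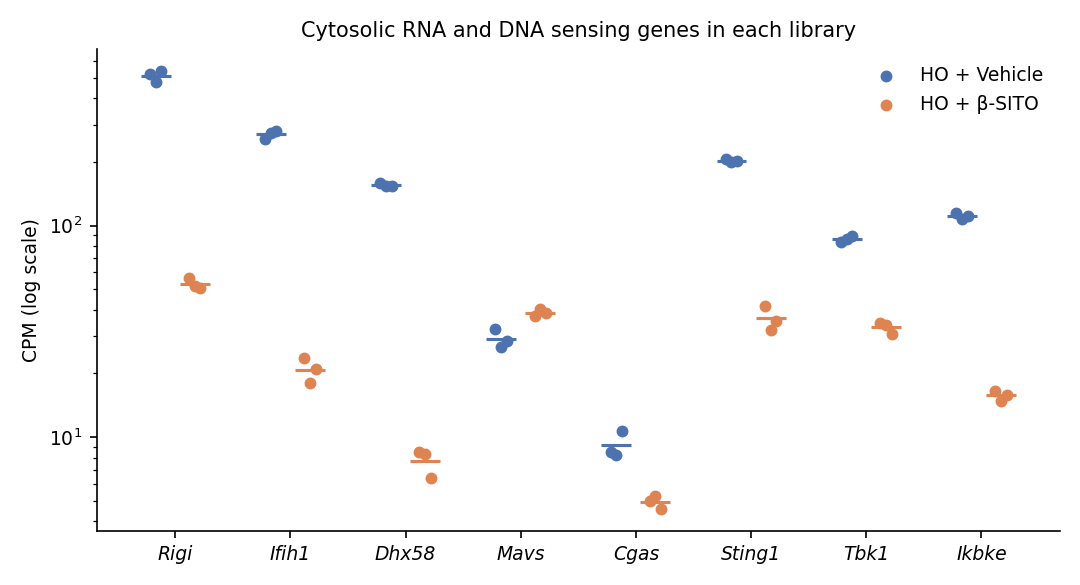
CPM (log scale) of the 8 tested members in each library, with a line at the mean of each group (3 libraries a group, vehicle in blue and β-SITO in orange). Rigi had 478.1 to 537.3 CPM against 50.7 to 56.3 CPM, while the Mavs libraries of the β-SITO group (37.6 to 40.1 CPM) all lay above those of the vehicle group (26.6 to 32.5 CPM).

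The RIG-I-like receptors showed the largest decreases of the group. Dhx58, which encodes LGP2 and lies on chromosome 11 from 100585710 to 100595097, had 159.7, 153.7 and 153.2 CPM in V1 to V3 and 8.48, 8.32 and 6.40 CPM in T4 to T6. The vehicle libraries lay close together and far above every β-SITO library. Its log2 fold change was -4.33 ± 0.088 (SE, edgeR's quasi-likelihood test, adjusted p = 1.43e-15), a level 20.1-fold lower, and 1.80% of the tested genes had a lower log2 fold change. An antisense transcript, Dhx58os, overlaps 28.1% of the gene's span and had 27 to 37 counts against 12 to 13, while Dhx58 itself had 2452 to 2529 against 123 to 165 counts.

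Ifih1 encodes MDA5, which favours long double-stranded RNA. It lies on chromosome 2 from 62426142 to 62476599 and had 256.9, 273.8 and 280.1 CPM in V1 to V3, and 23.5, 17.9 and 20.9 CPM in T4 to T6. The groups did not overlap, and the log2 fold change was -3.70 ± 0.085 (SE, edgeR, adjusted p = 6.28e-15), a level 12.98-fold lower. Rigi encodes RIG-I, which recognises short RNA with a free triphosphate end, and lies on chromosome 4 from 40203773 to 40239828. It had 521.5, 478.1 and 537.3 CPM in V1 to V3 and 56.3, 51.6 and 50.7 CPM in T4 to T6. Rigi was the most abundant member by counts in both groups, and every β-SITO library lay below every vehicle library. Its log2 fold change was -3.28 ± 0.070 (SE, edgeR, adjusted p = 2.75e-15), a level 9.69-fold lower. The 95% intervals of the log2 fold changes were -4.52 to -4.14 for Dhx58, -3.88 to -3.52 for Ifih1 and -3.43 to -3.13 for Rigi, so they did not overlap.

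Mavs, the adaptor that both signalling receptors need, did not fall. It lies on chromosome 2 from 131075983 to 131089945 and had 32.5, 26.6 and 28.6 CPM in V1 to V3 and 37.6, 40.1 and 38.7 CPM in T4 to T6. Here every β-SITO library lay above every vehicle library, as it did for 34.8% of all tested genes. The log2 fold change of 0.41 ± 0.081 (SE, edgeR, adjusted p = 3.51e-04) exceeded the spread between libraries and did not reach 2-fold. It stayed between 0.35 and 0.56 under every alternative tried, including those that scale the libraries differently.

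**Figure D2:**
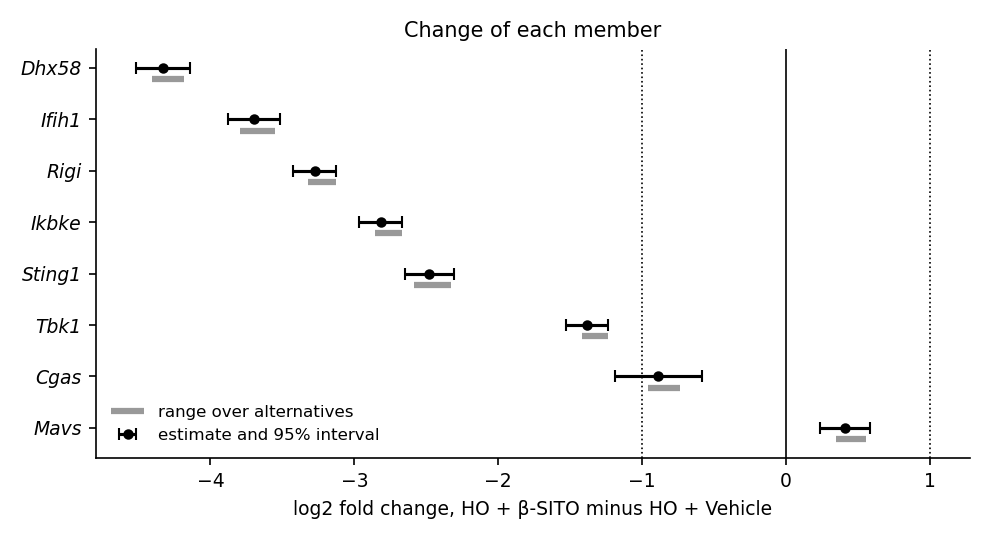
Log2 fold change of each tested member (β-SITO minus vehicle, 3 libraries a group), with points for the estimate, black bars for its 95% interval, grey bars for the range over the alternatives, and dotted lines at a 2-fold change. Dhx58 (-4.33) lies lowest, the interval of Cgas crosses the line at -1, and Mavs (0.41) is the member above 0.

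In the DNA arm, Sting1 fell, and the sensor gene Cgas was lower without reaching 2-fold. Sting1, which encodes the cGAMP receptor of the endoplasmic reticulum, had 206.7, 199.6 and 202.5 CPM in V1 to V3 and 41.5, 32.2 and 35.4 CPM in T4 to T6. The vehicle libraries differed by only a few percent among themselves and did not overlap with the others. The log2 fold change was -2.48 ± 0.079 (SE, edgeR, adjusted p = 3.37e-13), a level 5.57-fold lower. Cgas, on chromosome 9 from 78337808 to 78350519, was the least abundant tested member, with 8.53, 8.21 and 10.7 CPM in V1 to V3 and 4.98, 5.28 and 4.58 CPM in T4 to T6. These levels rest on 131 to 173 counts in the vehicle libraries and 88 to 97 in the others. The groups did not overlap, and the log2 fold change was -0.89 ± 0.141 (SE, edgeR, adjusted p = 4.79e-05), with a 95% interval from -1.19 to -0.59. Cgas was therefore not a DEG at the 2-fold cutoff, although its interval includes a 2-fold decrease. Part of Cgas overlaps an antisense pseudogene, Gm8093, which had 0 to 4 counts per library.

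Trex1, the main DNase of the cytosol, could not be measured. It was listed at 0 counts in all 6 libraries, which allows up to 3 counts each, or 0.190 CPM in the vehicle and 0.169 CPM in the β-SITO libraries. That limit holds only for reads assigned to Trex1. In the deposited table the gene spans chromosome 9 from 108887001 to 108888802, and all 1802 bases lie within Atrip, a DNA damage checkpoint gene on the same strand. In the GENCODE vM21 annotation (GRCm38) all 1147 exon bases of Trex1 are also exon bases of Atrip, so no read of Trex1 can be told apart from Atrip by position. Atrip itself had 15.2 ± 1.39 CPM without and 16.7 ± 1.77 CPM with β-SITO (SD, n = 3), and its log2 fold change of 0.14 missed the threshold (edgeR, adjusted p = 0.240). Which reads of this locus were counted for Atrip was not tested, and nothing follows for the level of Trex1.

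The kinases at which both arms meet fell, and by different amounts. Ikbke, the inducible IKKε, lies on chromosome 1 from 131182080 to 131207344 and had 115.3, 107.1 and 110.6 CPM in V1 to V3 and 16.6, 14.8 and 15.8 CPM in T4 to T6. The groups did not overlap. The log2 fold change was -2.82 ± 0.070 (SE, edgeR, adjusted p = 1.66e-14), a level 7.04-fold lower. Tbk1, the constitutive kinase of the pair, lies on chromosome 10 from 121382360 to 121422692. It had 83.3, 86.0 and 89.3 CPM in V1 to V3 and 34.6, 33.9 and 30.6 CPM in T4 to T6. Again the groups did not overlap, and the log2 fold change was -1.38 ± 0.068 (SE, edgeR, adjusted p = 6.45e-11), a level 2.61-fold lower. The 95% intervals were -2.97 to -2.67 for Ikbke and -1.53 to -1.24 for Tbk1.

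For the 7 tested members other than Mavs, every β-SITO library lay below every vehicle library, an arrangement seen for 35.8% of all tested genes, and 70.5% had groups that did not overlap in one direction or the other. The exact permutation test of the CPM gave p = 0.1 (two-sided) for each of the 8 genes, the smallest p that 3 libraries against 3 allow.

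Ratios between members within a library do not depend on how the libraries are scaled, and they showed how the proportions of its members differed. Levels were divided by the length of the principal transcript in GENCODE vM21. The Rigi level was 12.7, 14.2 and 14.8 times the Mavs level in V1 to V3, and 1.18, 1.01 and 1.03 times in T4 to T6. The ratio was lower in every β-SITO library, and its size depends on the lengths used, since with the union of all annotated exons the group means were 8.36 and 0.647 in place of 13.9 and 1.08. The Ifih1 to Mavs ratio was 5.22 ± 0.705 against 0.300 ± 0.0502, and the Dhx58 to Mavs ratio 6.79 ± 0.547 against 0.253 ± 0.0392 (SD, n = 3). Among the receptors, the regulator was lower relative to the signalling members in the β-SITO libraries. The Dhx58 to Rigi ratio was 0.489 ± 0.0293 against 0.235 ± 0.0288, and the Dhx58 to Ifih1 ratio 1.31 ± 0.0902 against 0.855 ± 0.181 (SD, n = 3). The Rigi to Ifih1 ratio went the other way, from 2.68 ± 0.202 to 3.62 ± 0.382 (SD, n = 3). The Ikbke to Tbk1 ratio was 1.29, 1.16 and 1.15 in V1 to V3 and 0.446, 0.405 and 0.482 in T4 to T6, and Sting1 to Cgas was 39.6 ± 5.48 against 13.01 ± 2.04 (SD, n = 3). In the vehicle group Sting1 stood at 9.29 ± 0.768 times the Mavs level, against 1.25 ± 0.204 times (SD, n = 3). For each of the 9 ratios compared, vehicle and β-SITO libraries were fully separated, and the two-sided exact permutation test gave p = 0.1 (0.1 adjusted over the 9), the smallest possible. The ratios are made of members whose changes are given above, so this separation is not an independent result. Of all tested genes 70.5% were separated singly, and no such share was worked out for ratios of other genes.

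**Figure D3:**
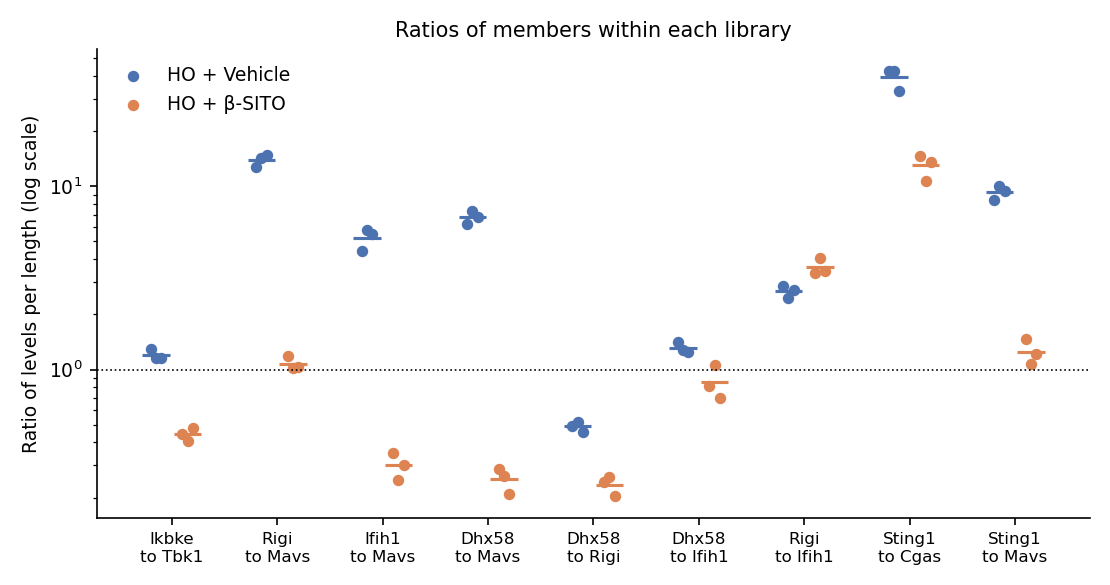
Ratios between the levels per length of named members in each library (log scale), with a line at the mean of each group (3 libraries a group, vehicle in blue and β-SITO in orange) and a dotted line at 1. The Ikbke to Tbk1 ratio lies above 1 in the vehicle libraries (mean 1.20) and below it in the β-SITO libraries (mean 0.444), while with union exon lengths both means lie below 1 (0.559 and 0.207).

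The order of the members by level per length also differed. In the vehicle group it ran from Rigi (132.2 ± 7.91 CPM per kb) through Sting1 (88.3 ± 1.56), Dhx58 (64.5 ± 1.51), Ifih1 (49.4 ± 2.20), Ikbke (34.1 ± 1.27), Tbk1 (28.5 ± 1.004) and Mavs (9.55 ± 0.979) to Cgas (2.26 ± 0.338, SD, n = 3), and no neighbours in this order overlapped between libraries. In the β-SITO group Sting1 (15.8 ± 2.06 CPM per kb), Rigi (13.6 ± 0.772) and Mavs (12.7 ± 0.421) came first, and Sting1 overlapped with Rigi and Rigi with Mavs. They were followed by Tbk1 (10.9 ± 0.717), Ikbke (4.84 ± 0.280), the overlapping pair of Ifih1 (3.80 ± 0.513) and Dhx58 (3.21 ± 0.479), and Cgas (1.22 ± 0.0871, SD, n = 3). This order depends on the length used. With the union of all annotated exons, an alternative chosen after seeing the data, Ikbke stood at 0.559 times Tbk1 in the vehicle group, in place of 1.20 times, and Sting1 (74.0 CPM per kb) came before Rigi (72.7 CPM per kb). In the β-SITO group Rigi (7.50 CPM per kb) then came after Mavs (11.6) and Tbk1 (8.45), and Ikbke (1.74) after Ifih1 (2.55) and Dhx58 (2.36).

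The other genes of the pathway were taken from lists by role, of which 159 genes were tested, and 43 (27.0%) were DEGs that fell and 6 (3.77%) DEGs that rose. The shares over all genes (10.1% and 12.8%) are the background here too, and no list was tested as a set. For list counts at an unadjusted p under 0.05, the background is 5198 lower and 5089 higher genes among all 14799 tested. Among RNA sensors and cofactors, 14 of 28 fell and none rose, by edgeR as by DESeq2 and limma-voom (22 were lower and 5 higher at an unadjusted p under 0.05), with a median log2 fold change of -1.15. Those that fell were the OAS genes (near-identical copies such as Oas1a and Oas1g may share reads), Ifit1, Ifit3, Ddx60, Zbp1, Eif2ak2, Adar and Zc3hav1. Oasl1, an OAS-like protein that binds RNA without making oligoadenylate, had the largest decrease (log2 fold change -7.47). Eif2ak2, which encodes the kinase PKR that halts translation on double-stranded RNA, had a log2 fold change of -2.95, and Adar, which edits such RNA so that MDA5 ignores it, one of -2.57. The general RNA helicases on this list were not DEGs, with log2 fold changes from -0.58 for Ddx21 to 0.16 for Dhx33.

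Among DNA sensors and cofactors, 5 of 29 fell and 1 rose, and the median was -0.15. Ifi205, Ifi204, Ifi203 and Mndal, which belong to the PYHIN family, fell, and so did Zbp1, a sensor of Z-form nucleic acid (log2 fold change -6.52) that the study chose on these libraries, so that it is not independent evidence. The PYHIN genes are close copies of each other, and how shared reads were counted is not given in the sources used here. Ifi205 had 382.8 to 475.3 CPM against 0.281 to 0.416 CPM, or 5 to 8 counts, a log2 fold change of -10.26 whose size is not precise. Aim2, the PYHIN sensor of the inflammasome, was at 20.8 ± 2.17 and 11.6 ± 0.824 CPM (SD, n = 3), and its log2 fold change of -0.85 (edgeR, adjusted p = 2.16e-06) did not reach 2-fold. Polr3g, a subunit of RNA polymerase III, rose with a log2 fold change of 1.06, and this call was lost without V2 (0.99), without T5 (0.998) and without T6 (0.95). Zcchc3, a cofactor of both cGAS and the RIG-I-like receptors, had a log2 fold change of 0.63 (edgeR, adjusted p = 3.85e-05) and was not a DEG.

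Among ubiquitin ligases and other activators, 3 of 19 fell and none rose, by edgeR, DESeq2 and limma-voom (11 lower and 4 higher at an unadjusted p under 0.05). They included Trim25 and Rnf135, ligases that switch on RIG-I, with Trim25 at 302.4 ± 16.5 against 79.8 ± 4.32 CPM (SD, n = 3; log2 fold change -1.92) and Rnf135 at 52.1 ± 4.69 against 14.2 ± 0.884 CPM (SD, n = 3; log2 fold change -1.87), and the remaining one was Dtx4 (-1.04), whose call was lost with upper quartile scaling (-0.90), with library size only (-0.89) and without V1 (-0.99). Mex3c, another ligase that activates RIG-I, had a log2 fold change of 0.07 (edgeR, adjusted p = 0.369). Of 32 genes listed as inhibitors, 7 fell and 3 rose (5 and 4 with upper quartile scaling or library size only). The interferon-induced genes Isg15 (-6.96) and Usp18 (-6.87) had the largest decreases of this list on the log2 scale. Enpp1, the hydrolase that degrades cGAMP outside cells, rose from 42.5 ± 3.67 to 122.0 ± 3.38 CPM (SD, n = 3; log2 fold change 1.52, edgeR, adjusted p = 2.26e-11). Stim1, a calcium sensor that also retains STING in the endoplasmic reticulum, rose with a log2 fold change of 1.71, and the remaining gene that rose was the phosphatase gene Dusp1 (1.09). Nlrx1, a mitochondrial brake on MAVS, had a log2 fold change of 0.69 (edgeR, adjusted p = 3.79e-05) and was not a DEG.

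Nucleases that clear stray nucleic acid were split as well, with 3 of 15 that fell and 1 that rose. Samhd1, which depletes nucleotides, was at 648.8 ± 27.5 and 66.5 ± 5.22 CPM (SD, n = 3; log2 fold change -3.29, edgeR, adjusted p = 3.30e-15). The others that fell were Pnpt1 (-2.35), a mitochondrial exoribonuclease, and Rnaset2b (-2.19), whose reads its near-identical copy Rnaset2a may share. Pld4, an exonuclease of endosomes, rose with a log2 fold change of 2.03. The subunits of ribonuclease H2, which removes RNA from DNA hybrids, did not move as a unit. Rnaseh2b had a log2 fold change of -0.59 and Rnaseh2c one of 0.97, which passed 2-fold with upper quartile or library size scaling and without V2, T4 or T5, while Rnaseh2a had -0.04 (edgeR, adjusted p = 0.719) and changed sign with those scalings and without V2 or T6. Rnaseh2c shares 77.8% of its span with Kat5 on the other strand, and whether the counting used strand is not given in the sources used here. The number of nucleases that fell was 4 to 5 with each library left out in turn, where Dnase1l3 and Rnaset2a, with at most 22 counts in any library, could enter the test.

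Around the kinases, 5 of 18 partners and adaptors fell and none rose by any of the 3 tools (14 lower and 3 higher at an unadjusted p under 0.05), with a median of -0.48. With upper quartile scaling or library size only, 2 fell. The scaffold proteins of TBK1 and IKKε differed: Azi2 (log2 fold change -1.47) and Tank (-1.34) fell, and Tbkbp1 had a log2 fold change of 0.24 (edgeR, adjusted p = 0.0250) below the 2-fold cutoff. Traf3, the ubiquitin ligase that links MAVS to these kinases, fell (-1.13), a call that was lost with upper quartile scaling (-0.99) and with library size only (-0.98), and Traf2 (-1.07) and the chaperone gene Hsp90aa1 (-1.13) fell too, calls that these scalings also ended. None of the 8 tested carriers of cyclic dinucleotides was a DEG by edgeR, DESeq2 or limma-voom, and 4 were lower and 2 higher at an unadjusted p under 0.05. The folate carrier Slc19a1 was nearest to the cutoff (0.98) and passed it with upper quartile scaling, with library size only, without V1 and without T4.

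At the end of the pathway, the transcription factors that the kinases phosphorylate went apart. Irf7, which interferon induces, had 1180 to 1313 CPM against 8.95 to 11.7 CPM, a log2 fold change of -6.85 ± 0.10 (SE, edgeR, adjusted p = 6.45e-17). Irf3, which is present before any stimulus, had 26.0 ± 1.42 against 33.5 ± 0.722 CPM (SD, n = 3). Every β-SITO library lay above every vehicle library, as for 34.8% of all tested genes. The log2 fold change of 0.37 (edgeR, adjusted p = 4.26e-04) was below the 2-fold cutoff. Of the 14 factors and outputs listed, 6 were tested and 4 fell (Irf7, Irf1, Irf5 and, except with upper quartile scaling or library size only, Nfkb1), and none rose by the 3 tools (5 lower and 1 higher at an unadjusted p under 0.05). The 8 others were interferon genes with almost no counts. Ifnb1, a type I interferon gene, had 1 count in V2 and 0 in the other 5 libraries, and Ifna5 had 2 counts in V2. The other 6 had 0, of which Ifnk, Ifnl2 and Ifnl3 lie wholly within another gene. No listed interferon gene passed the filter on low counts, so no difference between the groups could be tested for them. Endosomal receptors of nucleic acid sit outside the cytosolic pathway, and their list of 9 genes also held helper proteins of these receptors. Of the 9, 3 fell, namely the receptor gene Tlr3 (log2 fold change -4.12) and the helper genes Unc93b1 (-1.21) and Hsp90b1 (-1.05). The Hsp90b1 call was ended by the same scalings. Tlr13, a receptor for bacterial ribosomal RNA, rose (2.11). Tlr7 (0.59), Tlr8 (0.70) and Tlr9 (0.37) did not reach 2-fold, and Tlr9 also missed the adjusted p threshold (edgeR, adjusted p = 0.069). For each of these genes every β-SITO library lay above every vehicle library, as for 34.8% of all tested genes.

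**Figure D4:**
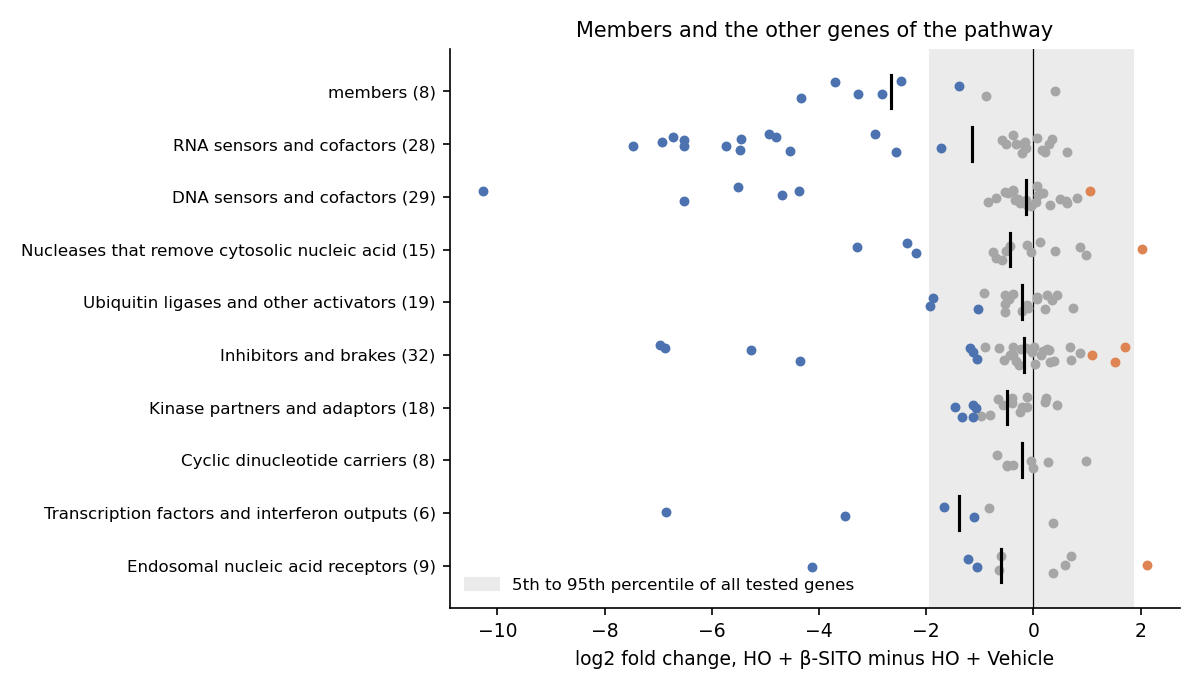
Log2 fold change (β-SITO minus vehicle, 3 libraries a group) of each tested member and of each tested gene on the pathway lists, with the number of genes in brackets, DEGs that fell in blue, DEGs that rose in orange, other genes in grey, black bars at the median of each list, and grey shading from the 5th to the 95th percentile of all tested genes (-1.93 to 1.86). The members lie to the left, with a median of -2.65, and RNA sensors and cofactors have a median of -1.15.

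The genes with the most similar profiles were found by the distance between log2 CPM values over the 6 libraries, each gene centred on its mean. For Dhx58 the nearest tested gene was Ms4a4d (distance 0.206), for Ifih1 it was Sp110 (0.213), and for Rigi it was 9530082P21Rik (0.118), closely followed by Samhd1 (0.119). Their log2 fold changes were -4.31 for Ms4a4d, -3.61 for Sp110 and -3.40 for 9530082P21Rik. A small distance requires a similar difference between the groups, so these similar changes follow from the selection and are not a separate result.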

How the data were processed

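The values are raw counts of reads per gene, which the authors made with featureCounts and deposited as 1 matrix of 6 libraries without normalization. The submitters' processing notes name FastQC, HISAT2, featureCounts and GRCm39, and versions and counting options are not given in the sources used here. Reads were paired-end (150 bp). Coordinates of genes are those of the deposited table, and transcript lengths and exon overlaps came from GENCODE vM21 (GRCm38), matched by gene identifier.

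Counts were filtered with filterByExpr, scaled with TMM and tested with edgeR 4.0.16's quasi-likelihood test (R 4.3.3) with Benjamini-Hochberg adjustment over all 14799 genes, with the study's DEG thresholds (adjusted p below 0.05, over 2-fold). The group was the only term. SE and 95% intervals were derived from the F statistic. Alternatives were DESeq2 1.42.0, limma-voom (limma 3.58.1), other scalings, filters and thresholds, and the removal of each library. On simulated counts for 14577 genes, 98 of 100 genes changed 3-fold and 100 of 100 changed 8-fold were recovered, with 0 false calls. The simulation changed only 200 genes, a smaller share than the 22.8% that were DEGs here. It therefore does not measure false calls when so many genes change.

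Named genes were all members, 21 regulators given by name, and the extreme DEGs of each list. Others are mentioned as parts of a list or because they overlap a member, and were chosen after their values were seen. The members and lists were chosen with earlier results of these data known. The result of 1 marker list is not reported here.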

Additional observations from a re-analysis of the deposited data

How the results depend on the processing

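Each of the 6 members that fell kept its call under all 15 alternatives, with log2 fold changes from -4.40 to -4.18 for Dhx58, -3.80 to -3.55 for Ifih1, -3.32 to -3.13 for Rigi, -2.86 to -2.67 for Ikbke, -2.58 to -2.33 for Sting1 and -1.42 to -1.24 for Tbk1. Without the fold-change cutoff, Mavs passed as higher (0.41) and Cgas as lower (-0.89), so that 1 member was higher, and over all genes 5007 were lower and 4885 higher. Under that setting the counts of lower and higher genes were 13 and 7 for DNA sensors, 8 and 4 for nucleases and 10 and 3 for activators. They were 16 and 10 for inhibitors, 13 and 2 for kinase partners, 4 and 2 for carriers and 5 and 3 for endosomal receptors and their helpers. Among RNA sensors 4 were higher, as was 1 transcription factor. Upper quartile and library size scaling moved the median of all genes by 0.143 and 0.148. With either, 3 nucleases, 4 inhibitors and 1 carrier were higher. The lower genes then numbered 2 kinase partners, 2 activators, 5 inhibitors, 3 transcription factors and 2 genes of the endosomal list. Traf2, Traf3, Hsp90aa1, Dtx4, Smurf1, Cyld, Nfkb1 and Hsp90b1 lost their calls, and Rnaseh2a turned to 0.10 and 0.11. With DESeq2 or no filter, 5 nucleases were lower. With each library left out in turn, lower nucleases numbered 4 to 5 and higher ones 1 to 2, higher carriers 0 to 1 (1 without V1 or T4) and higher DNA sensors 0 to 1 (0 without V2, T5 or T6). Rnaseh2a ranged from -0.071 to 0.0079, positive without V2 (0.0069) and without T6 (0.0079). The cause was not tested. No paired analysis was possible because the groups share no replicate numbers. Depth limits Cgas most among the tested members.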
